A study of Homo sapiens with 16 samples.

Results

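The nuclear-encoded subunits of the respiratory chain and of ATP synthase were followed in lung cancer cells expressing wt MET or MET∆14, the receptor of hepatocyte growth factor (HGF) with or without its exon 14 segment. Their genes were taken from the count table by symbol: NDUFA, NDUFB, NDUFC, NDUFS or NDUFV followed by a number for complex I, UQCR for complex III, the short COX symbols of families 4 to 8 for complex IV and ATP5 for complex V, without pseudogenes. This gave 79 of 42351 genes, of which 37 were assigned to complex I, 9 to complex III, 14 to complex IV and 19 to complex V. The rule leaves out a few subunits with other symbols, such as COX4I1, CYC1 and NDUFAB1, which were read as a separate list. NDUFA4 was first described as a complex I protein and is now assigned to complex IV; it was kept by its prefix, and both assignments were run. By the labels, the wt MET line was A549, a lung adenocarcinoma line, and the MET∆14 line was NCI-H596, an adenosquamous lung line. The column names of the count table read H549, and the study's text does not mention A549 but gives EKVX, another lung adenocarcinoma line, for wt MET, so the identity of the wt MET line is uncertain. Both lines were deprived of serum and given HGF, and they were collected at 0, 3, 6 and 12 h; polyadenylated RNA was sequenced from 2 replicates of each of the 8 conditions. Each MET form was represented by 1 cell line, so a difference between MET forms and any other difference between these lines cannot be told apart. The only unstimulated libraries were those of 0 h, so time in culture and time with HGF cannot be told apart either. In bulk RNA, fewer cells of a kind and less RNA per cell also cannot be told apart.

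Complex I takes electrons from NADH and passes them to ubiquinone, complex III passes them from ubiquinol to cytochrome c, and complex IV gives them to oxygen. Complexes I, III and IV pump protons across the inner mitochondrial membrane, and complex V, the ATP synthase, lets the protons return and makes ATP. Each of these complexes is built from proteins encoded in the nucleus and a few encoded in mitochondrial DNA, and the nuclear genes are known to be served by the transcription factors NRF1, GABP and YY1. Complex II, which has nuclear subunits only, was read beside them.

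The libraries held 10158590 to 23909304 counts in all, and the subunit genes took 0.434% to 0.776% of them. No gene named as mitochondrially encoded was in the table (0 genes), so the partners from mitochondrial DNA were not analysed here. Of the 79 genes, 74 passed the filter on low counts and were tested together with all other genes (15067 in all): 37 of complex I, 9 of complex III, 10 of complex IV and 18 of complex V. The labels were checked against defining genes. CDKN2A, which A549 cells lack, had 0 counts in all 8 wt MET libraries and 86.0 CPM at the lowest, 145 at the median and 157 CPM at the highest with MET∆14, where CPM is edgeR's unit of counts relative to the TMM-scaled library size. The summed squamous markers were at 1.21 to 3.57 CPM with wt MET and 2317 to 3276 CPM with MET∆14. The summed adenocarcinoma markers were at 1.62 to 4.95 CPM with wt MET and 66.2 to 139.9 CPM with MET∆14, the adenosquamous line. Their sum was thus higher in the line without the adenocarcinoma label, but the single markers were divided. At 0 h, 1 of the 3 tested was higher and 2 were lower with MET∆14 (median log2 difference -2.84). SFTPB and SFTPC did not pass 3 counts in any library of either line, nor did NKX2-1 with MET∆14. Epithelial markers were at 1737 to 2518 CPM and 2016 to 3227 CPM. The 3 leukocyte markers summed to 34.3 to 41.8 CPM and 108 to 154 CPM, from CD68, with PTPRC and CD3E at no more than 3 counts in any library. The 4 fibroblast markers summed to 10.8 to 33.5 CPM over both lines, nearly all from COL1A1, with COL1A2, DCN and LUM at no more than 3 counts. The 3 endothelial markers summed to 0.404 to 1.77 CPM and 0.383 to 1.99 CPM. Their part in the results was not tested.

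The first MET∆14 library at 12 h stood apart from its replicate, and this reached the subunit genes directly. Their median log2 CPM was -0.51 relative to replicate 2, and 67 of 74 were lower. Transcripts under 1 kb were lower by the same measure over all genes (median -0.35) and transcripts over 4 kb higher (0.21), and the cytosolic ribosomal protein genes were at -0.67. The subunit genes have short transcripts, with a median of 740.5 nt against 3150 nt over all genes tested. Within the subunit genes the difference was -0.53 for the 46 transcripts under 1 kb and -0.48 for the 28 longer ones. The wt MET libraries at 0 h differed in the same way but less, with a median of -0.20 over the subunit genes, and in the other 6 conditions this median lay between -0.01 and 0.07. What set these libraries apart was not tested. Counts of subunit genes called are mostly given with and without them. Values of single genes and of the other gene lists are mostly given with all libraries only.

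Levels can be compared between genes only per transcript length, and for this the CPM were divided by the length of the canonical transcript in kb. In unstimulated cells expressing wt MET, ATP5F1B, the catalytic beta subunit of ATP synthase, was the highest of all at 541 ± 39.4 CPM per kb (mean ± SD, n = 2). It was followed by the complex IV genes COX6B1 at 454 ± 29.7 and COX6A1 at 419 ± 42.1 CPM per kb, which did not differ beyond their spread. With MET∆14, COX8A, a small complex IV subunit, was first at 321 ± 2.91 CPM per kb, ahead of ATP5F1B at 252 ± 0.724. The exons of COX8A overlap another gene of the same strand in 35.4% of their bases, so its counts are less certain. COX6B1 and COX6A1 stood at 188 ± 7.34 and 175 ± 11.5 CPM per kb there. The tested subunits of complex I had a median level of 63.2 CPM per kb with wt MET and 61.8 with MET∆14, and those of complex IV 175 and 113. Over all libraries, complex IV made up 27.2% to 29.1% of the summed CPM per kb of the subunit genes with wt MET and 18.1% to 20.8% with MET∆14. Complex I made up 32.4% to 33.6% and 40.6% to 42.3%. The 8 libraries of each line did not overlap in either share, whereas the shares of complexes III and V did.

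The first comparison was between the unstimulated lines. Of the 74 subunit genes tested, 23 were higher and 32 lower with MET∆14, against 40.6% higher and 39.6% lower of all genes tested. The lines differed in 80.2% of all genes in either direction, and the share of subunit genes called, 55 of 74, was not above that. The median log2 difference of the subunit genes was -0.21, against 0.02 over all genes. Complex IV had 0 genes higher and 5 lower of 10 (median -0.98), and complex I was split evenly, 15 higher and 15 lower of 37 (median -0.03). Complex III had 2 higher and 3 lower of 9 (median -0.18), and complex V 6 higher and 9 lower of 18 (median -0.29). COX6B2, 1 of the 10 genes of complex IV, passed the filter only through wt MET, and without it the median of the other 9 was -0.85. With NDUFA4 counted in complex IV, the median of that complex was -0.85 as well. Without the second wt MET library at 0 h the median over all subunit genes was -0.01, that of complex III was 0.06 and that of complex I 0.14, whereas that of complex IV was -0.91. With a correction for GC content and transcript length, 48 of the 55 calls remained. The median was then -0.18 over the subunit genes and -0.19 over all genes, so the subunit genes as a whole were not below the background.

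In complex IV, the called genes were COX7A2, COX5A, COX6B1, COX6A1 and COX6C. COX5A (ENSG00000178741, chr15:74919791-74938083), a subunit on the matrix side, was at 159.9 and 199.6 CPM in the unstimulated wt MET libraries and 67.0 and 72.8 CPM in those with MET∆14, a log2 difference of -1.36 ± 0.14 (SE, adjusted p = 2.77e-07). COX7A2, the form of this subunit found outside muscle, was at 113 and 135 CPM with wt MET against 47.6 and 44.5 CPM with MET∆14 (-1.43 ± 0.14 SE, adjusted p = 2.34e-07). The MET∆14 values lay far below the wt MET values for both genes. COX6B1, which faces the intermembrane space, was at 211 and 232 CPM with wt MET against 94.1 and 89.1 CPM with MET∆14 (-1.27 ± 0.15 SE, adjusted p = 1.04e-06). COX6A1, whose exons overlap another gene of the same strand in 13.1% of their bases, was at 209 and 241 CPM with wt MET against 98.2 and 89.4 CPM with MET∆14 (-1.26 ± 0.20 SE, adjusted p = 5.99e-05). Other subunits of the same complex did not pass the test. COX8A was at 138 and 156 CPM with wt MET against 159.6 and 158 CPM with MET∆14 (0.11 ± 0.17 SE, adjusted p = 0.57), and COX7B at 108 and 127 CPM with wt MET against 102 and 96.7 CPM with MET∆14 (-0.24 ± 0.16 SE, adjusted p = 0.171). COX4I1, a subunit of complex IV outside the symbol rule, was lower with MET∆14 as well, by a log2 difference of -0.31 ± 0.14 (SE, adjusted p = 0.0487).

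Promoter sequences are shown for 3 of the called complex IV genes, since they differed between the lines in the same direction, and for COX5B, which did not pass the test (-0.17 ± 0.19 SE, adjusted p = 0.427). RefSeq (GRCh38.p14) windows from 250 bases before to 50 after the start matched 64 of the 79 genes, some with more than 1 start (76 windows). Each was searched on both strands for GCGCATG, the core of the NRF1 motif, CCGGAAG, the core bound by ETS factors such as GABP, and AAGATGG, the core of the YY1 motif. The letters at the end of CCGGAAG are those at the start of AAGATGG, so matches of this pair can overlap. The stretches before the start are printed 5′ to 3′ on the strand of the gene, with matches in capitals.
COX5B, chr2:97645812-97646061, plus strand: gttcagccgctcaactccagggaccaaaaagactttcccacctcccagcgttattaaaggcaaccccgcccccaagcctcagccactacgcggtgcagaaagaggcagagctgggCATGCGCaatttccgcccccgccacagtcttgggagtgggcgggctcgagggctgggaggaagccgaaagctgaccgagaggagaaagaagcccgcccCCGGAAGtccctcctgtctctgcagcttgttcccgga
COX6A1, chr12:120437863-120438112, plus strand: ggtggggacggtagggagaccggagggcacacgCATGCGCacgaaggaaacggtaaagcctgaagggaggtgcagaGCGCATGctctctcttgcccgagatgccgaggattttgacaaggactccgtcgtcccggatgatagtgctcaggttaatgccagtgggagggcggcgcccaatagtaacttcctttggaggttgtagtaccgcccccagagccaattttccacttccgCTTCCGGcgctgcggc
COX6B1, chr19:35648223-35648322, plus strand: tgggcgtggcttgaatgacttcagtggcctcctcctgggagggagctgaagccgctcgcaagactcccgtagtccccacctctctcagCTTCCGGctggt
COX5A, chr15:74938074-74938173, minus strand: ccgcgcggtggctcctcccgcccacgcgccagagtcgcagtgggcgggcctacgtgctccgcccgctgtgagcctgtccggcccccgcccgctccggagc
COX6A1 held both the NRF1 core, at 217 and 174 bases before the start, and the ETS core at 16 bases, and COX5B held the NRF1 core at 135 and the ETS core at 37 bases, with a second ETS core running across the start. COX6B1 held the ETS core alone, at 12 bases, and COX5A held none of the letters searched. Of the called genes not shown, COX7A2 held none of the letters in its windows, and COX6C had no matched window. Matches were thus found in an uncalled gene and lacking in called ones. Over all subunit windows, 15 of 76 (19.7%) held the NRF1 core, against 4.43% of 35116 windows in the table. The ETS core was in 19 (25.0%) against 10.3%, and the YY1 core in 18 (23.7%) against 5.84%. By complex, the ETS core was in 3 of 7 windows of complex III, 4 of 13 of complex IV, 7 of 18 of complex V and 5 of 38 of complex I.

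Complex V was divided within its own parts. In the catalytic head, the alpha and beta subunits were lower with MET∆14 and the small delta and epsilon subunits of the central stalk higher, whereas gamma, the third subunit of this stalk, was lower as well (ATP5F1C, -0.52). ATP5F1B was at 903 and 1001 CPM with wt MET against 445 and 443 CPM with MET∆14 (-1.10 ± 0.12 SE, adjusted p = 5.03e-07), and the alpha gene ATP5F1A at 327 and 322 CPM with wt MET against 157 and 152 CPM with MET∆14 (-1.07 ± 0.09 SE, adjusted p = 2.76e-08). The epsilon gene ATP5F1E was at 88.2 and 103 CPM with wt MET against 238 and 232 CPM with MET∆14 (1.30 ± 0.12 SE, adjusted p = 1.06e-07), and the delta gene ATP5F1D had a log2 difference of 1.24. With the correction for GC content and length the differences of ATP5F1D and ATP5F1C were 0.66 and -0.34, both called. Among the peripheral stalk genes, which hold the head still, ATP5PO and ATP5PD were higher (1.21 and 1.04) and ATP5PB lower (-1.08). ATP5IF1, the inhibitor that blocks hydrolysis of ATP by the enzyme, was the gene of complex V most raised with MET∆14. It was at 37.3 and 42.0 CPM with wt MET against 111 and 106 CPM with MET∆14 (1.45 ± 0.09 SE, adjusted p = 6.59e-10). ATP5MPL, a small membrane subunit, was at 86.0 and 104 CPM with wt MET against 27.8 and 24.9 CPM with MET∆14 (-1.86 ± 0.12 SE, adjusted p = 1.63e-09). ATP5F1E and ATP5ME share exonic bases with genes on the other strand, and whether strand was used in counting is not given, so their counts are less certain.

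The ring of c subunits, through which protons pass, is encoded by ATP5MC1, ATP5MC2 and ATP5MC3, whose mature proteins are the same. ATP5MC1 (ENSG00000159199, chr17:48892765-48895871) was at 102 and 115 CPM with wt MET against 31.4 and 28.3 CPM with MET∆14 at 0 h (-1.86 ± 0.12 SE, adjusted p = 1.05e-09). ATP5MC2 was at 173 and 179 CPM with wt MET against 71.6 and 64.6 CPM with MET∆14 (-1.37 ± 0.12 SE, adjusted p = 2.80e-08). ATP5MC3 was at 129.6 and 141 CPM with wt MET against 167 and 161 CPM with MET∆14 (0.28 ± 0.14 SE, adjusted p = 0.0817) and did not pass the test. Per kb, ATP5MC3 made up 10.1% to 11.6% of the 3 genes in the wt MET libraries and 28.5% to 33.8% in the MET∆14 libraries, with the canonical length of each gene. The ranges of the 2 lines did not overlap. The sum of the 3 genes was at 439 to 516 CPM per kb with wt MET and 145 to 228 with MET∆14, its lowest value in the library that stood apart. The promoters of the 2 genes that differed are shown for this contrast within 1 gene family, and no window was matched for ATP5MC3.
ATP5MC1, chr17:48892687-48892786, plus strand: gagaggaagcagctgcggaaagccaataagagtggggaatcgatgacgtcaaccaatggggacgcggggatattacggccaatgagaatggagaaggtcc
ATP5MC2, start with an NRF1 core, chr12:53676084-53676183, minus strand: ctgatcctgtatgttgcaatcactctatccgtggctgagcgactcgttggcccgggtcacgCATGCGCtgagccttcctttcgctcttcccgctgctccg
ATP5MC2, other start with an NRF1 core, chr12:53676331-53676430, minus strand: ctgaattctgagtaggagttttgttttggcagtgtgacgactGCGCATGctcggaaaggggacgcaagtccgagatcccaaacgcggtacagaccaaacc
The capitals mark the NRF1 core, which was in both of these ATP5MC2 windows, on opposite strands, and not in that of ATP5MC1. ATP5MC2 has a further annotated start, with the window chr12:53675370-53675669, which held none of the letters searched. Around ATP5MC1, all 10 of the nearest tested genes on the chromosome, 5 on each side, were also lower with MET∆14 (median -3.33); around ATP5MC2, 7 of 10 were (median -1.06). The part of copy number in these differences was not tested.

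The largest difference of any subunit gene was in complex III. UQCRFS1 (ENSG00000169021, chr19:29205320-29213151) encodes the Rieske iron-sulphur protein, which takes the electron from ubiquinol. It was at 361 and 416 CPM with wt MET against 79.6 and 79.9 CPM with MET∆14, 4.87-fold lower (-2.28 ± 0.15 SE, adjusted p = 1.58e-09). The genes of the core proteins that line the matrix side went the other way. UQCRC1 was at 96.0 and 99.0 CPM with wt MET against 147 and 142 CPM with MET∆14 (0.57 ± 0.12 SE, adjusted p = 0.000314), and UQCRC2 at 132 and 141 CPM with wt MET against 180.4 and 179 CPM with MET∆14 (0.40 ± 0.07 SE, adjusted p = 0.000166). With the correction for GC content and length UQCRC1 was not called (0.11 ± 0.10 SE, adjusted p = 0.308). CYC1, the cytochrome of this complex outside the symbol rule, had a log2 difference of -0.76 ± 0.12 (SE, adjusted p = 2.50e-05). UQCRH, the hinge protein that holds cytochrome c, was at 89.1 and 112 CPM with wt MET against 96.8 and 89.8 CPM with MET∆14 and was not called in any comparison. Its near-identical copy UQCRHL was at 9.04 and 12.7 CPM with wt MET against 9.06 and 9.44 CPM with MET∆14 and was not called either, and reads could have been split between the pair. Of the 10 tested genes nearest to UQCRFS1, 8 were lower with MET∆14, with a median of -0.50. Its promoter, shown because its difference was the largest, held none of the letters searched.
UQCRFS1, chr19:29213152-29213251, minus strand: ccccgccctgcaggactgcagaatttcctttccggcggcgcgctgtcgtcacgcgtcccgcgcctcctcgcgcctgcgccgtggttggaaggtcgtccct

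Complex I differed gene by gene, also within its working parts. In the arm that oxidises NADH, NDUFV1, which binds NADH and the flavin, was at 86.2 and 92.9 CPM with wt MET against 142 and 145 CPM with MET∆14 (0.68 ± 0.08 SE, adjusted p = 1.80e-06). NDUFS1, the large iron-sulphur subunit beside it, was at 145 and 127 CPM with wt MET against 86.6 and 84.9 CPM with MET∆14 (-0.67 ± 0.09 SE, adjusted p = 4.72e-06). Neighbouring subunits of 1 arm thus lay on opposite sides. In the arm that reduces ubiquinone, NDUFS3 and NDUFS7 were higher with MET∆14 (log2 differences of 0.76 and 0.75) and NDUFS8 lower (-0.43). The correction for GC content and length changed some of these values. NDUFV1 and NDUFS7 were not called with it (0.07 ± 0.07 SE, adjusted p = 0.381, and 0.05 ± 0.10 SE, adjusted p = 0.658), and NDUFS8 was at -1.02 ± 0.12 (SE, adjusted p = 1.19e-06). Among the accessory subunits, NDUFS5 was highest relative to wt MET, at 39.2 and 45.0 CPM with wt MET against 111 and 99.5 CPM with MET∆14 (1.32 ± 0.14 SE, adjusted p = 2.73e-07), followed by NDUFB5 (1.30) and NDUFB10 (1.16). NDUFB9, of the membrane arm, was lowest, at 163 and 186 CPM with wt MET against 67.7 and 61.0 CPM with MET∆14 (-1.44 ± 0.17 SE, adjusted p = 1.79e-06), followed by NDUFB8 (-1.40) and NDUFV3 (-1.13). NDUFA4 was at 171 and 195 CPM with wt MET against 184 and 168 CPM with MET∆14 and did not pass the test (-0.06 ± 0.14 SE, adjusted p = 0.71). NDUFB8, NDUFA7 and NDUFS7 overlap other genes in their exons, NDUFA7 by 32.5%.

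The differences between the lines were followed through the HGF course. There were 20 subunit genes higher and 23 lower with MET∆14 at all 4 times, against 32.7% and 31% of all genes. At 3, 6 and 12 h, 54, 55 and 61 were called, against 80%, 81.6% and 81.6% of all genes. In complex IV, 0 were higher and 5 lower at all times, and in complex V 6 and 7. In 32 genes every MET∆14 library lay below every wt MET library, and in 12 genes above, against 30.5% and 31.7% of all genes. Without the first MET∆14 library at 12 h these were 32 and 24 genes, against 31.7% and 32.9%, with COX8A, NDUFA7 and UQCRC1 among the further genes above. UQCRFS1, COX5A and ATP5MC1 were among those below and ATP5IF1, NDUFS5 and NDUFB10 among those above, with and without that library. At 12 h the median difference of complex IV was -1.23 and, without the library that stood apart, -0.95.

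The second comparison asked whether the subunit genes moved with HGF. Averaged over 3, 6 and 12 h, 13 subunit genes were lower and 1 higher than at 0 h with wt MET, against 20.1% lower and 17.5% higher of all genes. Among the lower genes were NDUFB10, NDUFB1, NDUFV2, NDUFV1, NDUFA8, NDUFS7 and NDUFS8 of complex I, UQCR11 and UQCRB of complex III and ATP5PO, ATP5IF1 and ATP5F1A of complex V, and the higher one was NDUFS1. No gene of complex IV was called by the quasi-likelihood test of edgeR (0 of 10, with 1 at an unadjusted p under 0.05), and DESeq2 called 0 of its genes. The same held for each single time in either line, with at most 4 of its genes at an unadjusted p under 0.05. The median change was -0.11 over the subunit genes and -0.05 over all genes, and 63 of 74 were below 0. By time, 0 higher and 3 lower were called at 3 h, 1 higher and 9 lower at 6 h and 2 higher and 10 lower at 12 h, against 17.4%, 34.2% and 35.1% of all genes in either direction. The test over the 3 times together called 11 subunit genes, against 40.3% of all genes. In each of these tests the share of subunit genes called was below the share over all genes. The times share their 0 h libraries.

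These counts depended on single libraries. Without the second wt MET library at 0 h the mean change was below 0 in 37 of 74 subunit genes, against 7756 of 15433 genes tested. Without the first it was below 0 in 70 of 74, against 8137 of 15450 genes tested. Without the second wt MET library at 0 h, 4 genes were lower and 0 higher on average (background 14.8% and 13.8%), and the median change was -0.0015. NDUFB10, ATP5PO and NDUFV1 were among the 4. Without the MET∆14 library that stood apart, which enters the wt MET tests only through the spread shared by the fit, 27 were lower and 1 higher (background 24.9% and 21.2%), with a median of -0.11. All 14 genes called with every library were among these. With the correction for GC content and length, 8 of the 14 genes were called, and NDUFS1, NDUFA8, NDUFS7, NDUFS8 and UQCR11 were among those lost.

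NDUFB10 (ENSG00000140990, chr16:1959538-1961975), an accessory subunit of the membrane arm of complex I, fell most with wt MET. It was at 30.1 and 31.6 CPM at 0 h, 21.5 and 21.3 at 3 h, 17.2 and 17.8 at 6 h and 18.4 and 19.8 at 12 h. All 6 later libraries lay below both unstimulated ones, and the mean log2 change was -0.68 ± 0.12 (SE, adjusted p = 0.000541). NDUFV1 went from 86.2 and 92.9 CPM at 0 h to 78.7 and 72.4 at 3 h, 69.1 and 72.7 at 6 h and 60.7 and 59.6 at 12 h (-0.39 ± 0.07 SE, adjusted p = 0.000461). NDUFV2, its partner in the same arm, went from 44.3 and 44 CPM at 0 h to 35.2 and 32.2 at 3 h, 31.7 and 31.6 at 6 h and 34.1 and 37.0 at 12 h (-0.39 ± 0.11 SE, adjusted p = 0.00944). For both genes, too, no later library reached the unstimulated ones. The change of NDUFV2 was not called when the first or the second unstimulated library was left out (-0.39 and -0.38). NDUFS1, of the same arm, rose instead, from 145 and 127 CPM at 0 h to 152 and 152 at 3 h, 163 and 163 at 6 h and 162 and 174 at 12 h (0.24 ± 0.07 SE, adjusted p = 0.0169). In no other subunit gene did all later libraries lie above the unstimulated ones. Without the second wt MET library at 0 h the mean change of NDUFS1 was 0.17 and was not called. With the correction for GC content and length, NDUFS1, whose transcript is the longest of the subunit genes at 11660 nt, was not called (0.09 ± 0.10 SE, adjusted p = 0.52), and NDUFV1 was at -0.22 ± 0.06 (SE, adjusted p = 0.00752).

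In complex V, ATP5PO, which joins the peripheral stalk to the head, went from 44.2 and 42.6 CPM at 0 h to 30.7 and 32.6 at 3 h, 35.2 and 34.6 at 6 h and 31.6 and 33.6 at 12 h (-0.39 ± 0.09 SE, adjusted p = 0.00262). ATP5IF1 went from 37.3 and 42.0 CPM at 0 h to 31.8 and 29.7 at 3 h, 33.3 and 30.7 at 6 h and 29.4 and 30.5 at 12 h (-0.36 ± 0.08 SE, adjusted p = 0.00177), and ATP5F1A from 327 and 322 CPM at 0 h to 269.9 and 267 at 3 h, 263 and 265 at 6 h and 271 and 274 at 12 h (-0.27 ± 0.07 SE, adjusted p = 0.00793). None of the later values of these genes reached an unstimulated one. The change of ATP5F1A was not called when the first or the second unstimulated library was left out (-0.26 and -0.27). That of ATP5IF1 was not called without the second (-0.26). ATP5F1B, by contrast, had 903 and 1001 CPM at 0 h and 869.6 and 874 CPM at 12 h, and its mean change did not pass the test (-0.11 ± 0.10 SE, adjusted p = 0.386). In complex III, UQCR11 went from 33.6 and 38.9 CPM at 0 h to 30.2 and 27.6 at 3 h, 28.8 and 25.6 at 6 h and 29.6 and 29.7 at 12 h (-0.34 ± 0.11 SE, adjusted p = 0.0275; -0.21 ± 0.09 SE, adjusted p = 0.0898, with the correction for GC content and length), whereas UQCRFS1 was at 361 and 416 CPM at 0 h and 446 and 438 CPM at 12 h (mean change 0.06 ± 0.12 SE, adjusted p = 0.723). In complex IV, COX5A was at 159.9 and 199.6 CPM at 0 h, 155 and 156 at 3 h and 193 and 185 at 12 h (-0.07 ± 0.11 SE, adjusted p = 0.645). The groups of libraries were also set against each other without a model. In all, 23 subunit genes had every later library below both unstimulated ones with wt MET and 1 above, against 19.5% and 18.1% of all genes. Against the second unstimulated library alone 57 genes were below and 1 above (29.1% and 24.6% of all genes), and against the first alone 23 and 11 (31.2% and 26.3%).

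**Figure D1:**
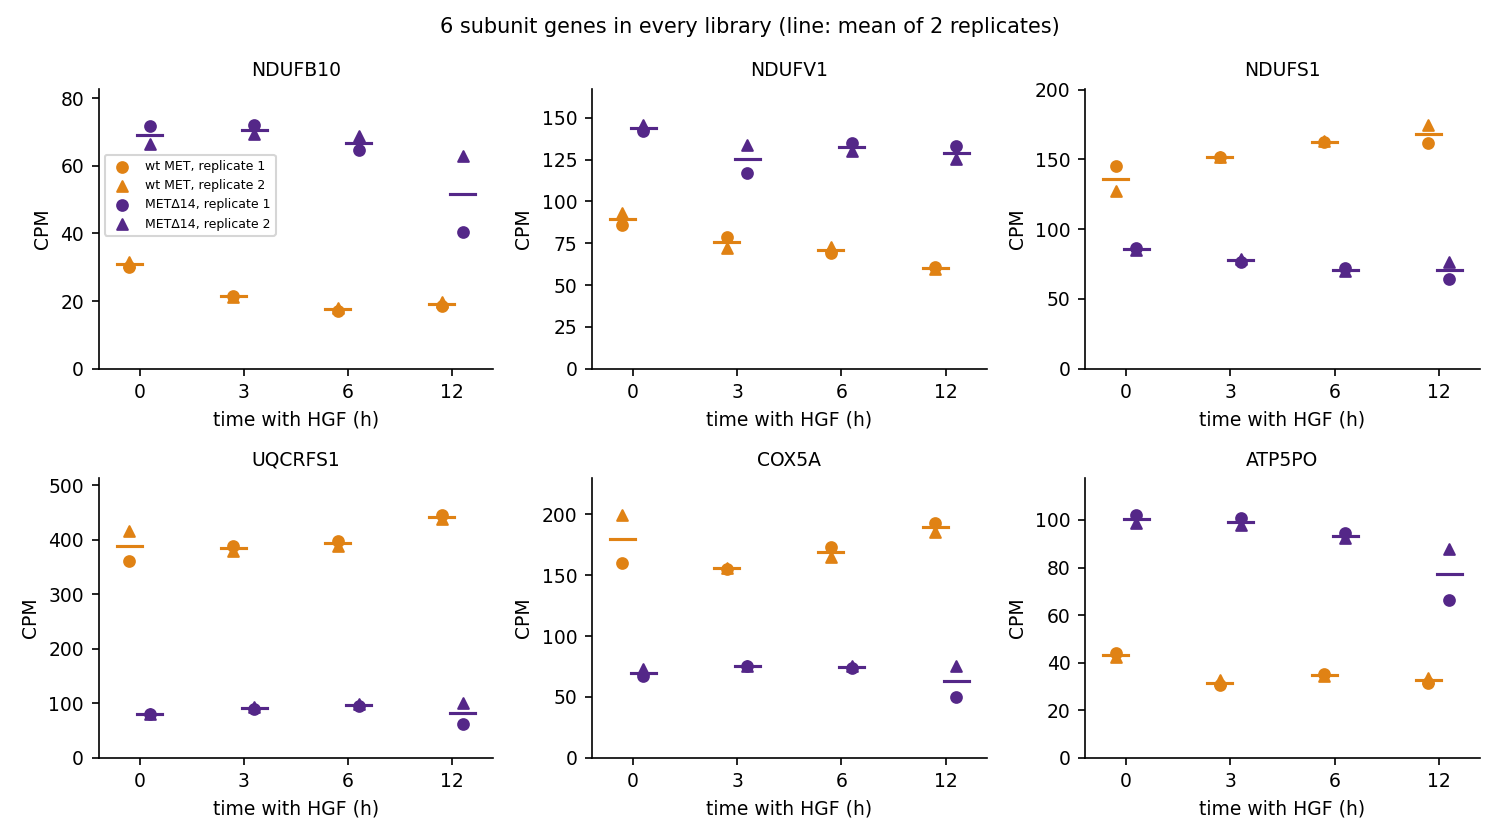
CPM (vertical axis, from 0) of NDUFB10, NDUFV1, NDUFS1, UQCRFS1, COX5A and ATP5PO in every library against time with HGF, with the mean of the 2 replicates as a line. With wt MET, NDUFB10 was at 30.1 and 31.6 CPM at 0 h and 17.2 and 17.8 at 6 h; with MET∆14 it was at 72.0 and 66.5 and 64.7 and 68.8 CPM.

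With MET∆14, the mean over the 3 times called 3 subunit genes lower and 0 higher, against 25.3% and 21.3% of all genes, so the share of subunit genes was below the background. NDUFS1 and UQCRC2 were among the 3, and none of the 3 was called with the line fitted alone or with a correction for GC content and length. No subunit gene was called at 3 h (0 of 74 by edgeR, with 1 at an unadjusted p under 0.05, and 0 by DESeq2), although 31.7% of all genes were. At 6 h NDUFS1 alone was called, lower, against 44.1% of all genes. At 12 h 14 were lower and 0 higher, with a median of -0.24, against 20.1% and 18.3% of all genes. This fall rested on the library that stood apart. Without it, 2 were lower and 4 higher (background 21.1% and 17.3%), with a median of 0.0069, and without its replicate 64 were lower and 2 higher, with a median of -0.50 (background 23.8% and 22.5%). A lone library at 12 h was assumed to vary like the other conditions. The test over the 3 times together called 13 subunit genes with all libraries and 7 without that library, against 54.1% and 57.2% of all genes.

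NDUFS1 was lower after HGF with MET∆14, at 86.6 and 84.9 CPM at 0 h, 76.5 and 78.7 at 3 h, 71.9 and 69.8 at 6 h and 64.5 and 76.5 at 12 h, and no later library reached the unstimulated ones. Its mean log2 change was -0.24 ± 0.07 (SE, adjusted p = 0.0146), -0.15 ± 0.11 (adjusted p = 0.265) with the correction for GC content and length, and -0.19 ± 0.06 without the first library at 12 h. As each library was left out in turn, this change ranged from -0.28 to -0.19. It was not called when either unstimulated MET∆14 library was left out. UQCRC2 went from 180.4 and 179 CPM at 0 h to 166 and 182 at 3 h, 165 and 166 at 6 h and 144 and 139.5 at 12 h (-0.17 ± 0.06 SE, adjusted p = 0.0316), and 1 library at 3 h lay above the unstimulated ones. In complex IV the median of log2 CPM relative to 0 h was 0.06 and 0.06 in the libraries of 3 h and -0.0044 and -0.02 in those of 6 h. At 12 h it was -0.71 in the first library and -0.02 in the second. Without the first 12 h library, 6 genes were higher on average and 6 lower (background 24.2% and 29.7%). In 7 subunit genes every later library lay below both unstimulated ones and in 0 above, against 22% and 18.6% of all genes. Without the first 12 h library these were 7 and 9 genes, against 29.6% and 23.2%, the 9 being ATP5F1B, ATP5F1E, ATP5MD, COX5A, COX8A, NDUFB11, NDUFV2, UQCRFS1 and UQCRH. UQCRFS1 was among the genes higher without that library (0.27 ± 0.06 SE, adjusted p = 0.000775), at 79.6 and 79.9 CPM at 0 h and 94.8 and 98.1 CPM at 6 h.

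**Figure D2:**
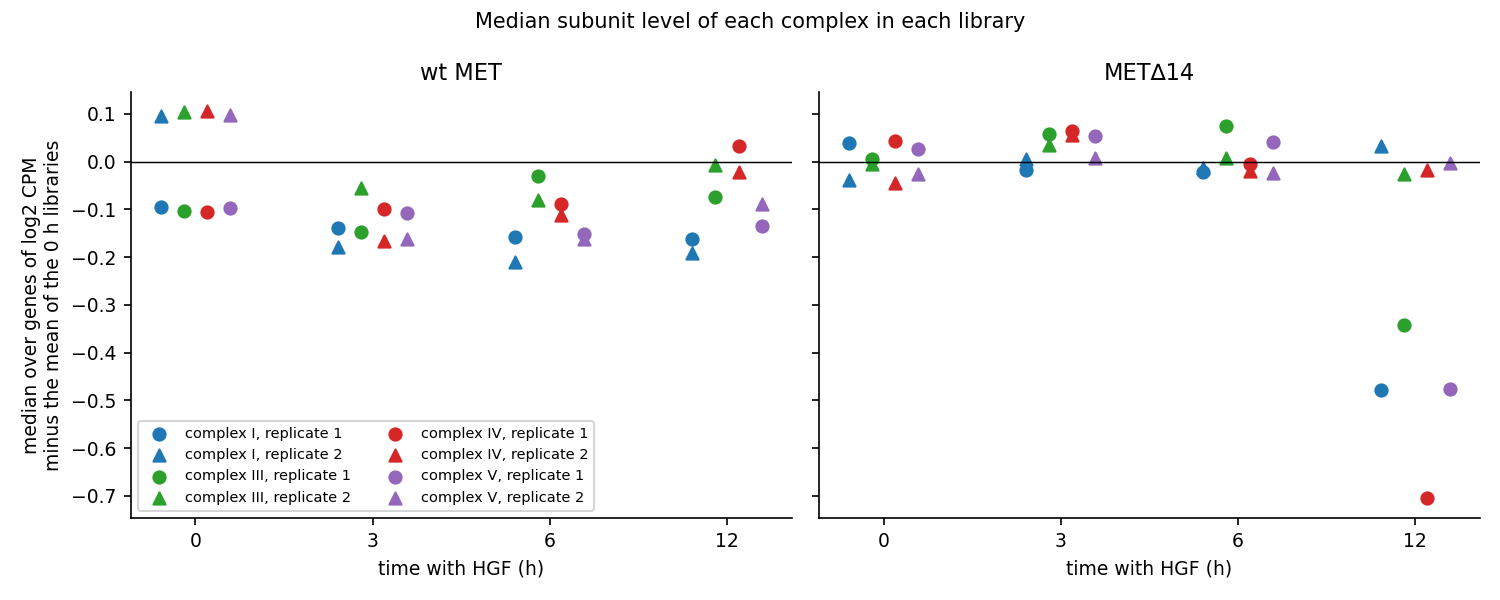
Median over the genes of each complex of log2 CPM in a library minus the mean of the 2 unstimulated libraries of the same line (vertical axis), by time with HGF, for both replicates. With wt MET the later medians of complex I lay between -0.21 and -0.14; with MET∆14 the first library at 12 h lay between -0.71 and -0.34 in the 4 complexes.

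The third comparison was of the responses themselves, between the lines. The test over the 3 times called 6 subunit genes, against 37.6% of all genes: NDUFS1, NDUFA5, NDUFV1, NDUFV2 and NDUFB10 of complex I and ATP5PB of complex V. Without the first MET∆14 library at 12 h it called 15, against 46.7% of all genes. The test of the mean response called 3, against 29.1% of all genes. NDUFS1 rose with wt MET and fell with MET∆14, and the responses differed by -0.48 ± 0.10 (SE, adjusted p = 0.00263) on the log2 scale. With the correction for GC content and length this difference was -0.24 ± 0.15 (SE, adjusted p = 0.239) and was not called. The changes of NDUFS1 within each line were less stable than their difference. Its call with wt MET was lost without the second wt MET library at 0 h. Its call with MET∆14 was lost when either MET∆14 library of 0 h was left out. The response of NDUFB10 was lower with wt MET, with a difference of 0.53 ± 0.17 (SE, adjusted p = 0.0268), and with MET∆14 it was at 72.0 and 66.5 CPM at 0 h and 64.7 and 68.8 at 6 h. NDUFV2 was at 55.3 and 58.7 CPM at 0 h and 67.6 and 62.0 CPM at 6 h with MET∆14, and its responses differed by 0.49 ± 0.15 (SE, adjusted p = 0.0239). The calls of NDUFB10 and NDUFV2 were lost when 10 and 8 of the 16 libraries were left out in turn, with differences from 0.40 to 0.63 and from 0.38 to 0.57, whereas NDUFS1 passed each time a library was left out, with differences from -0.57 to -0.40. NDUFV2 shares exonic bases with another gene on its strand (28.4%). Without the first MET∆14 library at 12 h, 20 genes had a mean response higher with MET∆14 and 2 lower (background 20.7% and 18.9%), and all 3 genes named were among them. Without the second wt MET library at 0 h, NDUFS1 alone was called (-0.40 ± 0.11 SE, adjusted p = 0.0197; background 23.2%). With cell line as an additive term, and so 1 response for both lines, the test over the times called 8 genes lower and 0 higher, against 17.2% and 13.4% of all genes.

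The promoters are shown of the complex I genes called with the largest difference of the mean response in each direction, NDUFB10 and NDUFS1. The capitals in NDUFS1 mark the ETS core, which lies 157 bases before the first of its 2 annotated starts; neither the second start nor NDUFB10 held any of the letters searched.
NDUFS1, first start, chr2:206159445-206159644, minus strand: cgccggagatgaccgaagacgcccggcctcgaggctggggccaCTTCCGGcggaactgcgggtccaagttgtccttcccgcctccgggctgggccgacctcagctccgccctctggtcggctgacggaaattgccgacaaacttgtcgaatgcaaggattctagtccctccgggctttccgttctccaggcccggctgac
NDUFS1, second start, chr2:206159210-206159409, minus strand: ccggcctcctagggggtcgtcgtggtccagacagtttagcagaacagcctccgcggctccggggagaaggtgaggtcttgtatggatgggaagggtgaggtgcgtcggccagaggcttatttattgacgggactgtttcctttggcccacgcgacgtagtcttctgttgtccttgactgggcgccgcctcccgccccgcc
NDUFB10, chr16:1959438-1959537, plus strand: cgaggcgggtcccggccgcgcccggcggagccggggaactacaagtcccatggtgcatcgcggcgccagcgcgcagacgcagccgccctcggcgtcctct

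Several subunits of complex IV have a second gene used in other tissues, and these were at or near 0 in both lines. The muscle forms COX6A2 and COX7A1 had 0 counts in all 16 libraries, as did COX7B2, and COX8C had at most 1 count in a library. For each of these a count of 0 allows up to 3 counts in a library, by counting error only. COX6B2, known from testis, passed the filter but stayed at 0.404 CPM at the lowest, 0.733 at the median and 1.05 at the highest with wt MET and 0.0428, 0.167 and 0.261 CPM with MET∆14, and its line difference at 0 h did not pass the test (-1.12 ± 0.64 SE, adjusted p = 0.12). Their partners COX6A1, COX7A2, COX7B, COX8A and COX6B1 carried nearly all counts. ATP5MGL, a further gene of the ATP5MG family, had at most 2 counts in a library. Besides UQCRH and UQCRHL, only COX8A and NDUFB6 were called in none of the comparisons run, line differences at all 4 times included. With all libraries in the fit, 51 of the 74 were called in none of the comparisons over time. No share over all genes is given beside these counts, so they do not set the subunit genes apart.

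The other genes of the pathway were read from lists. Complex II had 1 higher and 1 lower of 4 called on average with MET∆14 and 0 with wt MET, where 1 passed an unadjusted p of 0.05 and DESeq2 called 0. SDHA, which binds the flavin and oxidises succinate, was at 462 and 458 CPM at 0 h and 846 and 966 CPM at 6 h with MET∆14, a mean change of 0.79 ± 0.07 (SE, adjusted p = 5.21e-07). With wt MET its mean change was -0.15 ± 0.07 (SE, adjusted p = 0.0973), and the responses differed by 0.94 ± 0.10 (SE, adjusted p = 5.93e-06). CYCS, cytochrome c, rose in both lines, by 0.62 ± 0.08 (SE, adjusted p = 2.20e-05) with MET∆14 and 0.33 ± 0.08 (SE, adjusted p = 0.00434) with wt MET; of the 7 tested genes of its list, the subunits and carriers outside the symbol rule, 1 higher and 0 lower were called with wt MET and 1 higher and 1 lower with MET∆14. Reads of SDHA and CYCS could have been shared with their pseudogene copies. Of the subunit genes, none was called higher on average with MET∆14 in the fit of all libraries.

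Assembly factors put the complexes together and are not part of them. With wt MET, 0 higher and 4 lower of 18 tested factors of complex I were called on average, 0 higher and 3 lower of 6 of complex III, 0 higher and 5 lower of 25 of complex IV and 0 higher and 1 lower of 4 of complex V, against 17.5% higher and 20.1% lower of all genes. The largest changes were those of ACAD9 (-0.57 ± 0.09 SE, adjusted p = 0.000184), BCS1L, which inserts the Rieske protein (-0.43 ± 0.11 SE, adjusted p = 0.00521), PET117 (-0.56 ± 0.11 SE, adjusted p = 0.00103) and ATPAF1 (-0.31 ± 0.08 SE, adjusted p = 0.0067). With MET∆14, 1 higher and 3 lower of 18 were called for complex I, 1 higher and 2 lower of 6 for complex III, 5 higher and 3 lower of 25 for complex IV and 1 higher and 2 lower of 4 for complex V, against 21.3% higher and 25.3% lower of all genes. The largest changes there were those of NDUFAF4 (0.70 ± 0.12 SE, adjusted p = 0.00023), LYRM7 (-0.55 ± 0.11 SE, adjusted p = 0.000835), COA7 (0.92 ± 0.07 SE, adjusted p = 1.07e-07) and TMEM70 (0.48 ± 0.11 SE, adjusted p = 0.00174). At 0 h the factors of complex IV were 3 higher and 17 lower of 25 with MET∆14 (median -0.76), and those of complex I 8 higher and 6 lower of 18 (median 0.24), against 40.6% and 39.6% of all genes.

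Among the regulators of mitochondrial biogenesis, 7 higher and 1 lower of 12 tested genes were called on average with MET∆14 and 3 higher and 3 lower of 12 with wt MET. Over all genes 21.3% were higher and 25.3% lower with MET∆14, and 17.5% and 20.1% with wt MET, which is also the background of the lists that follow. NRF1 rose in both lines, by 0.50 ± 0.08 (SE, adjusted p = 0.000251) with wt MET and 0.43 ± 0.09 (SE, adjusted p = 0.000972) with MET∆14. PPRC1, a coactivator of the PGC-1 family, rose by 0.98 ± 0.13 (SE, adjusted p = 1.99e-05) with MET∆14 and 0.46 ± 0.12 (SE, adjusted p = 0.00718) with wt MET. PPARGC1B, a coactivator of the same family, fell with wt MET (-1.05 ± 0.33 SE, adjusted p = 0.0238), where it was at 0.908 CPM at the lowest, 2.60 at the median and 5.91 at the highest. GABPA fell with MET∆14 (-0.23 ± 0.07 SE, adjusted p = 0.0131), and its counts share exonic bases with those of ATP5PF on the other strand. At 0 h TFAM, which packs and transcribes mitochondrial DNA, was at 179 and 194 CPM with wt MET and 35.3 and 33.8 CPM with MET∆14 (-2.43 ± 0.10 SE, adjusted p = 6.57e-12). Of the mitochondrial ribosome genes, which were also lower in the first MET∆14 library at 12 h (median -0.42), 0 higher and 11 lower of 78 were called on average with wt MET and 23 higher and 4 lower of 78 with MET∆14. The largest changes there were those of MRPL12 with wt MET (-0.61 ± 0.13 SE, adjusted p = 0.00175) and MRPL17 with MET∆14 (0.65 ± 0.15 SE, adjusted p = 0.00341). Of the tricarboxylic acid cycle genes, which feed NADH to complex I, 1 higher and 6 lower of 14 were called with wt MET and 5 higher and 2 lower of 14 with MET∆14. IDH2 changed most with wt MET (-0.58 ± 0.17 SE, adjusted p = 0.0172) and IDH3A with MET∆14 (0.62 ± 0.07 SE, adjusted p = 8.31e-06).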

How the data were processed

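Gene counts were used as deposited, whole numbers per gene and library. The authors trimmed adapters and mapped reads with STAR to hg38; the submitters' processing notes name STAR 2.5.0 and RSEM 1.3.2. The counting tool, the annotation release, the use of strand and the part of RSEM in these counts are not given in the sources used here. RNA was polyadenylated, prepared with a TruSeq kit after serum deprivation. The labels number the replicates without saying whether cultures were separate, so p-values measure the spread between these libraries, which may be technical.

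Counts were tested with edgeR 4.0.16 (R 4.3.3; TMM, filterByExpr with a minimum count of 10 and total of 15, robust quasi-likelihood test, 1 coefficient per condition), and p-values were adjusted by Benjamini-Hochberg over all 15067 genes tested, with a threshold of 0.05. Differences are log2 fold changes with the SE of the model. The mean response is the mean of 3, 6 and 12 h minus 0 h. Levels per kb use canonical transcripts of GENCODE 44, and 42275 genes were matched by ID. In data simulated at 3 h with MET∆14, 73% of 200 2-fold changes were recovered over 14839 genes, with 12 false calls. Smaller changes, such as those of most subunit genes after HGF, were not simulated. Alternatives used DESeq2 1.42.0, other filters and scaling, each line alone, a replicate block and each library left out. The members and lists were chosen with earlier results of these data known. Named with full values were subunits chosen by role and, per complex and comparison, the gene called with the largest change in each direction; further genes named were chosen after their values were seen. The values of 1 subunit gene are not reported here. No set test was run.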

Additional observations from a re-analysis of the deposited data

Results flagged for a closer look

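The responses of 6 subunit genes differed between the lines in the test over 3, 6 and 12 h together (edgeR's quasi-likelihood test, Benjamini-Hochberg). The adjusted p-values given here are those of this joint test, which has no direction, whereas the differences are those of the mean response. For NDUFS1, of the NADH-oxidising arm of complex I, the mean response differed by -0.48 log2 units, MET∆14 minus wt MET (adjusted p = 0.0056). For NDUFV1 and NDUFV2, of the same arm, it was higher with MET∆14, by 0.23 (adjusted p = 0.0364) and 0.49 (adjusted p = 0.0418). For NDUFB10, of the membrane arm, it was higher by 0.53 (adjusted p = 0.0336). NDUFA5, an accessory subunit, went from 75.0 and 82.2 CPM at 0 h to 72.9 and 82.3 at 3 h, 85.2 and 83.6 at 6 h and 96.7 and 94.9 at 12 h with wt MET and from 39.4 and 36.9 CPM at 0 h to 36.5 and 36.9 at 3 h, 37.5 and 31.7 at 6 h and 32.5 and 31.8 at 12 h with MET∆14, a difference of -0.27 (adjusted p = 0.0164). ATP5PB, of the peripheral stalk of complex V, went from 183 and 215 CPM at 0 h to 189 and 184 at 3 h, 197 and 189.6 at 6 h and 225 and 233 at 12 h with wt MET and from 92.3 and 96.2 CPM at 0 h to 99.9 and 92.6 at 3 h, 94.8 and 92.5 at 6 h and 68.2 and 92.6 at 12 h with MET∆14, a difference of -0.10 (adjusted p = 0.0426). The mean differences of NDUFA5, ATP5PB and NDUFV1 did not pass the test of the mean alone. For ATP5PB the call was lost under 16 of 23 alternatives (adjusted p from 4.75e-05 to 0.186). It was lost without the first MET∆14 library at 12 h (-0.03, adjusted p = 0.0841), and without the first wt MET library at 0 h its difference turned to 0.02 (adjusted p = 0.04). NDUFV2, NDUFB10 and NDUFV1 were lost under 18, 15 and 14 of the 23, NDUFA5 under 3 and NDUFS1 under 1, the correction for GC content and length (-0.24, adjusted p = 0.35). With that correction the difference of NDUFA5 was -0.06 (adjusted p = 0.0337).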

How the results depend on the processing

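With 2 libraries per condition, the counts of subunit genes called over time depended on single libraries, and those between the lines did so less. The causes were not tested. Counts over all genes also moved with the library left out and are not given beside each count here. The ranges below therefore do not set the subunit genes apart from the other genes. Leaving out each library in turn gave 45 to 61 genes for the lines at 0 h. With wt MET it gave 0 to 17 at 3 h, 1 to 28 at 6 h, 6 to 31 at 12 h, 4 to 28 for the mean and 4 to 35 for any time. With MET∆14 it gave 0 to 4, 0 to 8, 4 to 66, 0 to 39 and 3 to 65, where the highest counts of the last 3 came without the second library at 12 h. For the responses between the lines it gave 1 to 22 (mean) and 1 to 57 (any time). The median line differences ranged over -0.15 to 0.14 for complex I, -0.34 to 0.057 for III, the latter without the second wt MET library at 0 h, -1.08 to -0.83 for IV and -0.39 to -0.13 for V; the median 12 h response with MET∆14 ranged over -0.50 to 0.0069, the latter without the first library. Chosen after seeing the data, leaving out both MET∆14 libraries of 12 h gave 17, 24, 30, 28 and 35 genes with wt MET (3, 6, 12 h, mean, any time) and 3 and 10 with MET∆14 at 3 and 6 h. Each line fitted alone gave 11 at 3 h, 28 at 12 h, 26 for the mean and 22 for any time with wt MET, and 0 at 6 h, 1 at 12 h, 0 and 1 with MET∆14. A minimum change of 0.5 on the log2 scale left 1, 1, 4, 1 and 3 with wt MET, 0, 2, 0 and 2 with MET∆14 from 6 h on, 1 for the mean between the lines and 1 in the additive model. With the correction for GC content and length there were 5 at 3 h and 9 on average with wt MET, 2 at 6 h, 0 on average and 5 at any time with MET∆14. Complex IV then had a median line difference of -0.71 at 0 h, against -0.19 over all genes. Requiring 10 counts in every library gave 1 at 3 h, 3 at 6 h and 7 on average with MET∆14 and -0.74 for complex IV; with no filter there were 27 at 12 h and 28 at any time with MET∆14, 19 between the lines, and -0.43 for complex V. DESeq2 gave 6 at 6 h with wt MET and 7 at any time with MET∆14, and its size factors in edgeR 6 and 6, with 3 between the lines. The replicate numbers did not pair the samples (correlations of the replicate differences from -0.16 to 0.03); with the replicate block 48 genes differed between the lines, 7 responded with wt MET and 7 with MET∆14 at any time, and 3 responses differed. Over all these alternatives, 2491 values of single named genes stayed on their side of the threshold, 49 no longer passed it and 47 newly passed it. Values that did not pass could change sign. The mean response of COX5A with wt MET, for example, ranged from -0.22 to 0.11 as each library was left out. Chosen after seeing the data, each library was left out of the comparison of libraries without a model: 23 to 57 genes lay below and 1 to 11 above the unstimulated libraries with wt MET, 7 to 25 and 0 to 9 with MET∆14 (25 without the second library at 0 h), and 32 to 33 below and 12 to 24 above between the lines.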

Other observations

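The unstimulated line difference of each subunit gene was set beside that of the 10 tested genes nearest to it on the chromosome, 5 on each side. Over the 74 subunit genes, Spearman's rho between the 2 was 0.34 and Pearson's r 0.30, across genes that share libraries and are not independent. Beside COX6A1, which was lower with MET∆14, 10 of 10 neighbours were lower (median -1.29). Beside NDUFB5, which was higher, 9 of 10 were higher (median 0.94). Other subunit genes stood against their neighbours: NDUFV3 was lower (-1.13) while 10 of 10 neighbours were higher (median 1.07), and COX5A and NDUFA6 were lower (-1.36 and -1.04) while 7 and 8 of 10 were higher. Of the 74 genes, 44 were on the same side as the median of their neighbours and 30 on the other; at least 9 neighbours were on the side of the gene for 7 genes and on the other side for 3.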
